A study of Mus musculus with 8 samples.

Results

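The 37 genes described here encode proteins that repair damaged DNA or halt the cell cycle while damage is present. They were chosen by name from a fixed list, were each found on 1 row of a table of 57132 genes, and all 37 were among the 16588 genes with enough reads to test. Cells repair a damaged or missing base by base excision, in which a glycosylase cuts out the base, an endonuclease opens the strand and a polymerase and a ligase close it; oxidised bases are its classical substrate. Breaks through both strands are rejoined directly by end joining or copied from the sister chromatid by homologous recombination, bulky lesions are removed by nucleotide excision and replication errors by mismatch repair. The kinases Atm and Atr, with their targets Chek1 and Chek2, signal damage to the cell cycle. Much of this control is by protein modification, which RNA levels do not show.

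The samples were bulk tumour RNA from mice carrying subcutaneous KPC tumours, where KPC names a genetic mouse model of pancreatic cancer. In the 4 control samples (PBS 1 to PBS 4) the treatment is given as PBS, a phosphate-buffered saline; whether these tumours were lit is not stated. The 4 treated samples (PDT 1 to PDT 4) had targeted photodynamic therapy (PDT), in which light activates a dye, by means of Ce6@D4-EV. Ce6 stands for chlorin e6, a dye that turns oxygen into reactive species under light, and D4-EV is the submitters' name for what carries it. The sources used here do not give the mouse strain or age, the light dose or the time from light to harvest. No group labelled as light alone or unlit carrier was analysed here. The labels call the tissue sorted, without naming a gate, and whether each sample was a separate animal is not stated, so p-values measure only the spread between samples, which may be technical.

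Libraries held 35742024 to 48804713 counted reads. All 10 markers of ductal tumour epithelium were present in every library, among them Krt8 at 1230 to 3091 counts-per-million of the scaled library (CPM), Krt19 at 459.5 to 1163 CPM and Epcam at 71.3 to 409.4 CPM. On the first principal component of all genes PBS 1 lay apart with a score of −111.5, while PBS 2 to PBS 4 had scores of −8.53 to 4.32 and the PDT libraries 16.1 to 37.2. Macrophage and monocyte markers were higher in PDT for 12 of 12 genes, with summed levels of 1024 to 1893 CPM in PBS and 2020 to 2471 CPM in PDT, and T and NK cell markers for 12 of 12, with sums of 10.8 to 22.1 and 29.6 to 35.3 CPM. In edgeR, at the threshold given below, 1 and 0 of these genes were called, where 0.163% of all genes were called higher. An unadjusted p under 0.05 was found for 9 and 3, where 8.63% of all genes had such a p and were higher. Of the T and NK cell genes 8 had 0 reads in at least 1 library. Epithelial markers were higher for 4 of 10, with sums of 3744 to 7629 CPM in PBS and 3273 to 6503 CPM in PDT. The part that such differences in cell content have in the values below was not tested, and in bulk RNA fewer cells of a type and less RNA per cell cannot be told apart.

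None of the 37 genes passed the threshold between treated and control tumours. With edgeR (quasi-likelihood test, Benjamini-Hochberg adjustment, threshold 0.05) 0 members were called, against 39 of all 16588 genes, which is 0.235% (0.163% higher and 0.0723% lower in PDT). With an unadjusted p under 0.05 there were 4 members, 3 higher and 1 lower in PDT, where 16.5% of all genes had such a p (8.63% higher and 7.87% lower). DESeq2 called 1 member, Nthl1, where it called 6.5% of all genes, and limma-voom called 0, where it called 1.01%. The 4 PDT libraries lay wholly above the 4 PBS libraries for 2 members and wholly below for 2, where 5% and 5.12% of all genes did so. Read against those shares of all genes, none of these counts is a result about the members.

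The changes themselves were small. The median log2 fold change, PDT minus PBS, was 0.05 over the 37 members and 0.00 over all tested genes, and 24 members were above 0, as were 49.8% of all genes. Without PDT 3 the count above 0 was 16 and the median −0.06, so the surplus of higher members rests on that library. Without PBS 1 the values were 22 and 0.03, and without PDT 1 they were 25 and 0.15. The 95% interval of the change lay within a 2-fold change in either direction for 33 members and within a 1.5-fold change for 11. The 4 with a wider interval were Nthl1, Apex1, Mutyh and Ddb2, all expressed at 10.1 CPM or less on average in each group. Summed over the 37 genes, the level averaged 692.5 ± 32.9 CPM over the PBS and 721.7 ± 54.1 CPM over the PDT libraries (SD, n = 4).

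**Figure D1:**
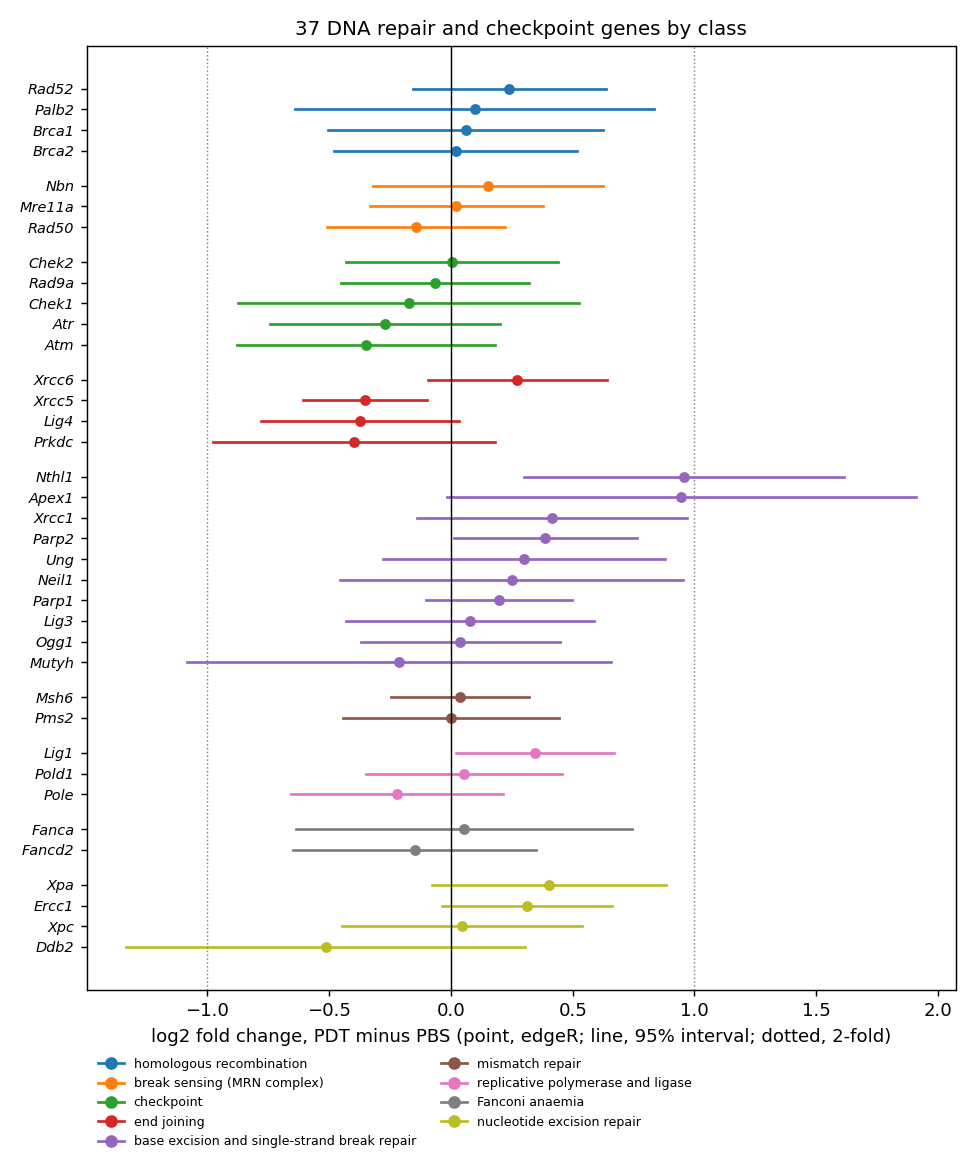
Log2 fold change of each of the 37 genes (horizontal axis, PDT minus PBS, 4 libraries per group), grouped and coloured by repair class; points are edgeR estimates, lines their 95% intervals, the solid line is no change and the dotted lines a 2-fold change. Most intervals cross 0, those of Nthl1, Parp2 and Lig1 lie above it and that of Xrcc5 lies below it, and 0 of the genes had an adjusted p under 0.05.

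Upstream sequence is shown for 3 genes, because Nthl1 was the member with the smallest p and Xrcc5 and Xrcc6 encode the partners of one protein complex yet differed in direction. Each run is the 250 bases before the gene start, 5′ to 3′ on the gene's strand, from RefSeq on build GRCm38.p6. Capitals mark letters of an E2F-type site, the kind of element bound by the E2F factors of S phase genes.
Nthl1, chr17:24632432-24632681, plus strand: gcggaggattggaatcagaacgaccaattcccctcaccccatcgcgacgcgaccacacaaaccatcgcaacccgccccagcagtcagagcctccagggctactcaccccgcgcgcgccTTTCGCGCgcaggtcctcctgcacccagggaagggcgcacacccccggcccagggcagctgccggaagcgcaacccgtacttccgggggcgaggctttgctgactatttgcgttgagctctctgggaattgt
Xrcc5, chr1:72307171-72307420, plus strand: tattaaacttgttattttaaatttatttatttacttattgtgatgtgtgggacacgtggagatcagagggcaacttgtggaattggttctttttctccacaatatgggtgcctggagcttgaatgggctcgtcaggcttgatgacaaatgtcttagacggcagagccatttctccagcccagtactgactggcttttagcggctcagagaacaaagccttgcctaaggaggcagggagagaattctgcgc
Xrcc6, chr15:82016119-82016368, plus strand: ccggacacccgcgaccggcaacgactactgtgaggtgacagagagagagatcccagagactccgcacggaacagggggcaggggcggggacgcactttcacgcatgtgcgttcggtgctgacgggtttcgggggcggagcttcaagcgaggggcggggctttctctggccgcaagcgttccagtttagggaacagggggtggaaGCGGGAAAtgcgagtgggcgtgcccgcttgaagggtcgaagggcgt
The letters searched on both strands were TTTCCCGC, TTTGGCGC, TTTCGCGC and TTTGCCGC, and no other motif was searched. RefSeq entries were matched by symbol for 29 of the 37 genes, with 33 starts, and 4 of these starts, those of Brca2, Chek2, Nthl1 and Xrcc6, held such letters, or 12.1%, against 1.86% of all 32851 starts. The GC content of the 3 windows was 65.2% for Nthl1 and Xrcc6 and 44.8% for Xrcc5. The starts were not matched for GC content, and neither the difference in share nor a link to the direction of change was tested. A match describes letters only and shows no binding.

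Base excision and single-strand break repair held the largest differences. Of its 10 members 9 were above 0 in PDT, with a median log2 change of 0.27, 0 called and 2 with an unadjusted p under 0.05. With 1 library left out in turn the median ran from 0.17 (without PDT 4) to 0.36 (without PDT 2), and the number above 0 from 7 (without PDT 3) to 9. The summed level was 151.6 to 173.8 CPM in the PBS libraries and 173.9 to 230.3 CPM in the PDT libraries, so the groups met without overlapping, and PDT 4 was the highest. Parp1 made up the largest part of this sum, at 52.4 to 77.6 CPM. Sums of 13 other base excision genes, from a further list given below, overlapped, at 210.1 to 245.6 CPM in PBS and 240.5 to 266 CPM in PDT. Proliferation markers, which mark dividing cells, were above 0 for 16 of 22 genes with a median of 0.11, and their summed levels overlapped, at 1297 to 1563 CPM in PBS and 1322 to 1638 CPM in PDT.

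Nthl1 (ENSMUSG00000041429) encodes a glycosylase that removes oxidised pyrimidines. It was at 3.75, 4.67, 2.73 and 3.84 CPM in PBS 1 to PBS 4 and at 8.69, 4.995, 6.02 and 9.43 CPM in PDT 1 to PDT 4. Every PDT library lay above every PBS library, by a narrow margin for PDT 2. Means were 3.75 ± 0.794 and 7.29 ± 2.12 CPM (SD, n = 4), a log2 difference of 0.96 ± 0.30 (SE), with an adjusted p of 0.148 in edgeR, and of 0.0366 by DESeq2 and 0.168 by limma-voom. With 1 library left out the log2 difference ran from 0.82 to 1.11. The gene Tsc2, which starts within 300 bases of Nthl1 on the opposite strand, differed by −0.28 ± 0.19 (adjusted p = 0.507 in edgeR).

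Apex1 (ENSMUSG00000035960) encodes the main endonuclease that cuts the strand at a site without a base. It was at 3.35, 6.75, 4.76 and 6.02 CPM in PBS 1 to PBS 4 and at 7.34, 5.38, 5.89 and 21.7 CPM in PDT 1 to PDT 4. PDT 4 stood far above the rest, PDT 1 was slightly above the highest PBS library, and PDT 2 and PDT 3 lay within the PBS range. Its log2 difference of 0.95 ± 0.44 (SE, adjusted p = 0.312 in edgeR) was 0.26 without PDT 4. Apex1 overlaps Pip4p1 on the opposite strand, which was at 54.5 CPM in PDT 4 and at 37.3 to 48.4 CPM in the other 7 libraries, and it is not stated whether counting used strand.

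Parp2, a polymerase that builds poly(ADP-ribose) chains at breaks, was at 17.5, 14.5, 12.8 and 19.6 CPM in PBS and at 23.7, 20.6, 19.4 and 20.4 CPM in PDT, taken in order. The groups overlapped only where PBS 4 exceeded PDT 3, and the log2 difference was 0.39 ± 0.17 (SE, adjusted p = 0.285 in edgeR). Parp1, its more abundant relative, was at 62.9, 57.2, 56.6 and 56.9 CPM in PBS and at 52.4, 70.9, 66.8 and 77.6 CPM in PDT. PDT 1 was the lowest of all 8 libraries and the other PDT values were the 3 highest, with a log2 difference of 0.20 ± 0.14 (adjusted p = 0.530).

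Ogg1, the glycosylase for oxidised guanine, was at 23.7, 19.9, 32.4 and 23.8 CPM in PBS and at 24.3, 20.5, 31.9 and 25.6 CPM in PDT. The 2 groups spanned almost the same range. Its log2 difference was 0.04 ± 0.19 (SE), with a 95% interval of −0.37 to 0.45, and −0.17 after a correction for transcript GC content and length described below. Mutyh, which removes adenine placed opposite oxidised guanine, was the 1 member of the class below 0, at −0.21 ± 0.40, and among the least expressed of the 37 genes at 1.53 to 3.05 CPM. The glycosylases Ung (for uracil) and Neil1 (for oxidised bases), the scaffold Xrcc1 and the ligase Lig3 had log2 differences of 0.30, 0.25, 0.42 and 0.08, with adjusted p-values of 0.459 to 0.916 in edgeR. After the correction Xrcc1 was at 0.22 and Neil1 at 0.04.

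**Figure D2:**
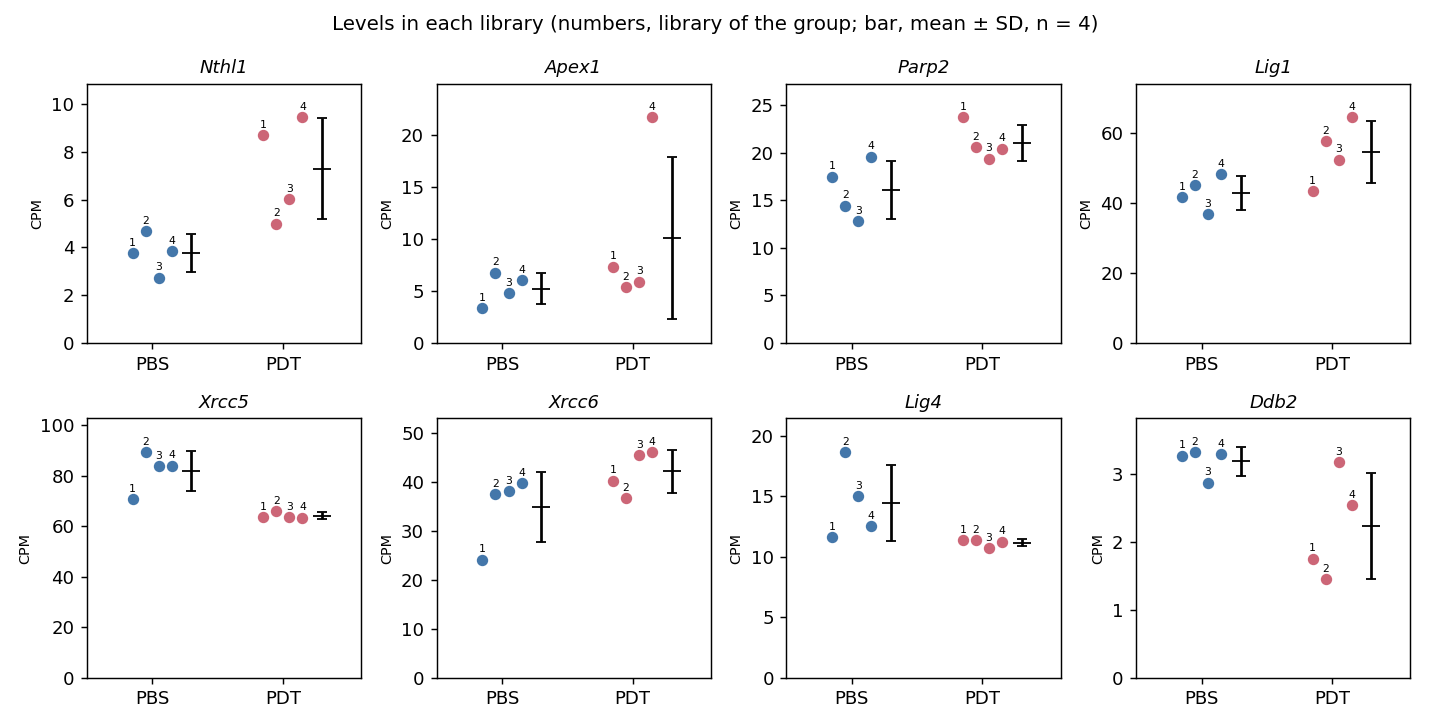
Level of 8 members (vertical axis, CPM from 0, each panel on its own scale) in the 4 PBS and 4 PDT libraries; points are libraries, numbered as in the text, and bars are the mean ± SD (n = 4). PDT values of Nthl1 lie above and those of Xrcc5 and Lig4 below all PBS values, while the higher mean of Apex1 in PDT comes with 1 library at 21.7 CPM.

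End joining was the class with the lowest median, −0.36, with 1 of its 4 members above 0, 0 called and 1 with an unadjusted p under 0.05. The median was −0.23 without PBS 3, and without PBS 2 it was −0.27, with the checkpoint class lower at −0.33. As counted, 7 other end joining genes, from a further list given below, differed from this: 6 were above 0, with a median of 0.15. After the GC and length correction Dclre1c, Polq and Nhej1 were at 0.47, 0.31 and 0.03. Rif1, Polm, Paxx and Poll were then at −0.13, −0.11, −0.09 and −0.009, and the median of the 4 members was −0.10. Xrcc5 (ENSMUSG00000026187) and Xrcc6 (ENSMUSG00000022471) encode Ku80 and Ku70, which together form the ring that binds broken DNA ends. Xrcc5 was at 70.7, 89.4, 83.9 and 84.0 CPM in PBS 1 to PBS 4 and at 63.8, 66.2, 63.6 and 63.5 CPM in PDT 1 to PDT 4. All PDT values were below all PBS values and lay close together. Means were 82.0 ± 7.93 and 64.2 ± 1.28 CPM (SD, n = 4), a log2 difference of −0.35 ± 0.12 (SE), with an adjusted p of 0.163 in edgeR, and of 0.0661 by DESeq2 and 0.0974 by limma-voom. Leaving out any 1 library gave −0.41 to −0.31, and the GC and length correction −0.34.

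Xrcc6 was at 24.1, 37.5, 38.0 and 39.6 CPM in PBS and at 40.2, 36.6, 45.5 and 46.0 CPM in PDT. PBS 1 was far below the other libraries, and PDT 2 was below 3 of the PBS libraries. The log2 difference was 0.27 ± 0.17 (SE, adjusted p = 0.462 in edgeR), and 0.14 without PBS 1. Per kilobase of exon, the ratio of Xrcc6 to Xrcc5 was 0.195, 0.240, 0.259 and 0.269 in the PBS libraries, in order of number. It was 0.360, 0.316, 0.408 and 0.414 in the PDT libraries. The ratio was higher in every PDT library than in any PBS library; it was chosen after the values were seen and has no test. Xrcc6 overlaps Desi1 on the opposite strand, which differed by 0.00 ± 0.14, whereas no protein-coding gene overlaps Xrcc5.

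Lig4 (ENSMUSG00000049717), the ligase that seals joined ends, was at 11.6, 18.6, 14.99 and 12.6 CPM in PBS and at 11.4, 11.4, 10.7 and 11.2 CPM in PDT. PDT values were all below the PBS values, although PBS 1 was only slightly above PDT 1. The log2 difference was −0.37 ± 0.19 (SE, adjusted p = 0.3495 in edgeR), −0.22 without PBS 2, and −0.14 after the GC and length correction. Prkdc, the catalytic subunit of the kinase that Ku recruits, was at 10.3, 13.1, 21.0 and 10.7 CPM in PBS and at 7.83, 13.7, 9.57 and 10.6 CPM in PDT. Apart from PBS 3 the groups covered a similar range, and the difference of −0.40 ± 0.26 (adjusted p = 0.505) was −0.12 without PBS 3 and −0.05 after the correction.

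Genes of homologous recombination differed little as counted. All 4 members were above 0, with a median of 0.08, 0 called and 0 with an unadjusted p under 0.05. The median rested on single libraries: it was −0.06 with 1 member above 0 without PDT 3, 0.13 without PBS 4, 0.19 without PBS 1 and 0.21 without PDT 1, and 2 members were above 0 without PBS 2. After the GC and length correction the median was 0.28 with all 4 above 0, where that of base excision was 0.21. Brca1 (ENSMUSG00000017146), which directs broken ends to recombination, was at 8.49, 18.0, 14.8 and 12.3 CPM in PBS and at 9.18, 14.7, 17.4 and 14.6 CPM in PDT. Library 1 was the lowest in both groups, and the log2 difference of 0.06 ± 0.26 (SE) had a 95% interval of −0.50 to 0.63. Brca2, which loads the recombinase, was at 8.76, 5.98, 7.70 and 6.57 CPM in PBS and at 7.29, 7.11, 8.76 and 6.26 CPM in PDT. The difference was 0.02 ± 0.23, or 0.38 after the GC and length correction. Its groups overlapped fully.

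Palb2, the bridge between the Brca1 and Brca2 proteins, was at 5.22, 2.43, 3.58 and 4.94 CPM in PBS and at 3.46, 3.82, 5.71 and 4.30 CPM in PDT. The difference was 0.10 ± 0.34 (SE), or 0.33 in limma-voom (adjusted p = 0.633). Rad52, an annealing protein, was at 9.90, 9.11, 8.33 and 8.49 CPM in PBS and at 10.46, 11.9, 10.1 and 9.87 CPM in PDT. Its groups overlapped only between PBS 1 and PDT 4, with a difference of 0.24 ± 0.18 (adjusted p = 0.568 in edgeR).

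The MRN complex, which senses broken ends and activates Atm, is encoded by Mre11a, Rad50 and Nbn. Rad50, its long coiled-coil member, was at 24.6, 32.6, 24.8 and 37.01 CPM in PBS and at 25.0, 31.1, 26.8 and 24.8 CPM in PDT. Nbn, the member that contacts Atm, was at 11.6, 15.02, 17.2 and 20.1 CPM in PBS and at 18.2, 23.4, 14.9 and 14.5 CPM in PDT. Log2 differences were −0.14 ± 0.17 for Rad50, which turned to 0.03 after the correction, and 0.15 ± 0.22 for Nbn (SE, adjusted p = 0.742 and 0.796 in edgeR). The nuclease Mre11a was nearly constant in PBS, at 23.9 to 24.1 CPM, and in PDT was highest in PDT 2, at 32.4 CPM, with the remaining libraries at 20.8 to 22.7 CPM. PDT 2 had the highest level of all 8 libraries for Nbn as well as for Mre11a, and without it their differences were 0.00 and −0.13.

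Of the checkpoint genes 1 of 5 was above 0, with a median of −0.17, 0 called and 0 with an unadjusted p under 0.05. The median was −0.04 without PBS 1 or without PDT 1, −0.11 without PDT 3, −0.33 without PBS 2 and −0.35 without PDT 2, and 0 to 2 of the 5 were above 0 with any 1 library left out. Atm (ENSMUSG00000034218), the kinase that responds to breaks, was at 15.1, 15.7, 19.4 and 10.002 CPM in PBS and at 8.60, 13.8, 14.7 and 10.1 CPM in PDT. PBS 4 lay within the PDT range, and the log2 difference of −0.35 ± 0.24 (SE, adjusted p = 0.527 in edgeR) was −0.20 without PBS 3, −0.21 without PDT 1 and −0.02 after the GC and length correction. Atr, the kinase that responds to stalled replication, was at 16.7, 10.7, 17.4 and 13.0 CPM in PBS and at 10.2, 14.1, 13.9 and 9.70 CPM in PDT. Its difference of −0.27 ± 0.22 was −0.17 without PBS 3 or without PDT 4, and turned to 0.06 after the correction.

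Chek1, the kinase downstream of Atr, was at 16.2, 6.01, 7.78 and 9.36 CPM in PBS and at 6.21, 12.1, 7.40 and 9.16 CPM in PDT. PBS 1 was the highest of all libraries, and the difference of −0.17 ± 0.32 (SE) turned to 0.18 without it. Chek2, the kinase downstream of Atm, was at 26.0, 14.6, 18.1 and 19.2 CPM in PBS and at 16.6, 19.6, 24.04 and 17.8 CPM in PDT. The difference was 0.00 ± 0.20 with a 95% interval of −0.43 to 0.44. Rad9a, a subunit of the clamp that helps activate Atr, was at 13.1 to 19.5 CPM over all libraries, with a difference of −0.07 ± 0.18, or −0.24 after the correction.

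Mismatch repair, with 2 members, had the class median closest to 0 with all 8 libraries, at 0.02. Its median was 0.10 without PBS 3, where that of the MRN genes was 0.03. After the GC and length correction it was 0.12, where the checkpoint median was −0.02. Msh6, which recognises mismatched bases, was at 30.7, 33.3, 31.7 and 31.5 CPM in PBS and at 28.8, 29.8, 34.7 and 37.2 CPM in PDT. Pms2, part of the endonuclease that acts after recognition, was at 11.5, 9.39, 16.3 and 11.8 CPM in PBS and at 10.7, 13.6, 13.2 and 11.6 CPM in PDT. PDT values lay on both sides of the PBS values in Msh6 and within them in Pms2. The 95% intervals of the log2 difference were −0.25 to 0.32 for Msh6 and −0.44 to 0.44 for Pms2.

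Replication enzymes that also fill repair gaps did not move together. Lig1 (ENSMUSG00000056394), the ligase of replication and long-patch repair, was at 41.7, 45.2, 36.8 and 48.3 CPM in PBS and at 43.4, 57.8, 52.5 and 64.5 CPM in PDT. Apart from PDT 1 all PDT values exceeded the PBS values, with a log2 difference of 0.34 ± 0.15 (SE, adjusted p = 0.271 in edgeR). Pole, the leading-strand polymerase, was at 19.2, 12.5, 16.0 and 16.5 CPM in PBS and at 9.98, 15.3, 14.5 and 15.3 CPM in PDT. PDT 1 was the lowest, and the difference of −0.22 ± 0.20 was −0.08 without it. Pold1, the lagging-strand polymerase, differed by 0.05 ± 0.18 and ranged from 22.0 to 38.1 CPM.

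The Fanconi anaemia genes, which act on crosslinks between strands, overlapped between the groups. Fancd2, the protein tagged when a crosslink is met, was at 5.63, 8.01, 8.81 and 8.32 CPM in PBS and at 6.07, 6.75, 7.14 and 7.80 CPM in PDT. The log2 difference was −0.15 ± 0.23 (SE). Fanca, of the complex that tags it, was at 7.73, 10.9, 4.79 and 5.09 CPM in PBS and at 4.88, 7.36, 9.46 and 7.89 CPM in PDT. The difference was 0.05 ± 0.32. The order of libraries differed between these genes, and without PBS 2 Fanca was at 0.34.

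Nucleotide excision repair had 3 of 4 members above 0, a median of 0.18, 0 called and 0 with an unadjusted p under 0.05. The median was 0.10 without PBS 1, with 2 of 4 above 0, and 0.05 after the GC and length correction; without PDT 3 there were also 2 above 0. Ercc1, which with its partner cuts 5′ of the lesion, was at 19.3, 20.8, 14.5 and 21.0 CPM in PBS and at 21.6, 24.9, 22.4 and 24.9 CPM in PDT. Its PDT values all exceeded its PBS values, and the log2 difference of 0.31 ± 0.16 (SE, adjusted p = 0.364 in edgeR) was 0.07 after the GC and length correction. Ercc1 overlaps Cd3eap on the opposite strand, which differed by 0.82 ± 0.24 (adjusted p = 0.128), so their reads may not be separate.

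Xpa, which verifies the lesion, was at 12.6, 10.1, 10.96 and 16.7 CPM in PBS and at 21.7, 17.6, 13.5 and 13.7 CPM in PDT. PDT 1 and PDT 2 exceeded all PBS values and the other 2 did not, with a difference of 0.40 ± 0.22 (SE, adjusted p = 0.398 in edgeR), or 0.23 after the correction. Xpc and Ddb2 encode damage sensors. Xpc was at 13.6, 24.5, 26.9 and 26.5 CPM in PBS and at 18.9, 21.1, 29.3 and 25.1 CPM in PDT. The difference was 0.05 ± 0.23. Ddb2 (ENSMUSG00000002109) was at 3.27, 3.31, 2.87 and 3.29 CPM in PBS and at 1.75, 1.45, 3.17 and 2.54 CPM in PDT. Of the PDT values only that of PDT 3 lay within the PBS range, and the difference of −0.51 ± 0.37 (adjusted p = 0.553) had the lowest value of the 37 genes.

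**Figure D3:**
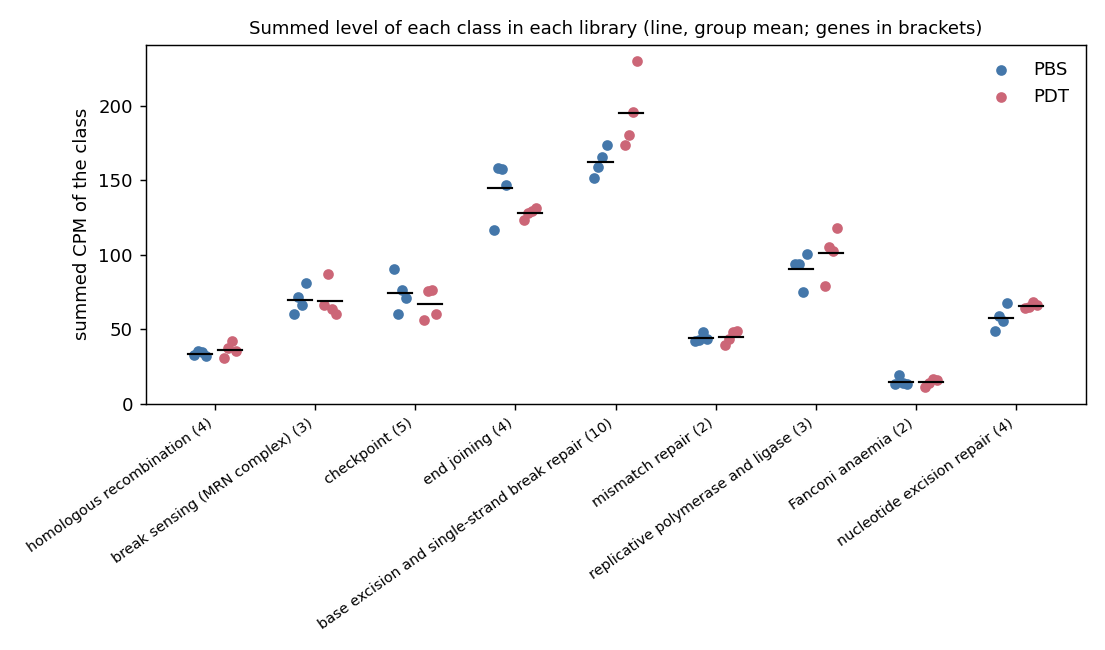
Summed level of each of the 9 classes (vertical axis, summed CPM from 0) in each PBS and PDT library, with the number of genes in brackets and a line at the group mean of 4 libraries. The base excision class lies at 151.6 to 173.8 CPM in PBS and 173.9 to 230.3 CPM in PDT, so its groups barely separate, and in the other 8 classes the groups overlap.

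Other genes of damage signalling also had 0 called in edgeR. A set of 15 p53-responsive damage genes had 10 above 0 with a median of 0.11. An unadjusted p under 0.05 was found for 3, all higher in PDT, where 8.63% of all genes had such a p and were higher. The set as a whole was not tested. Its summed levels overlapped, at 643.8 to 727.8 CPM in PBS and 678.5 to 758.5 CPM in PDT. Within the set Aen, an apoptosis-enhancing nuclease, differed by 0.59 ± 0.18 (SE, adjusted p = 0.132 in edgeR and 0.0463 in DESeq2). Cdkn1a, the p21 inhibitor of the cell cycle, was at a mean of 43.3 CPM in PBS and 67.9 CPM in PDT and differed by 0.65 ± 0.20 (adjusted p = 0.141 in edgeR and 0.0428 in DESeq2). DESeq2 called 6.5% of all genes.

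A further list of 80 repair genes had 47 above 0 and a median of 0.05, with 0 called in edgeR, 8 with an unadjusted p under 0.05 (4 higher and 4 lower), and 1 called in DESeq2. As counted, its classes did not all follow those of the members. After the GC and length correction the 7 end joining genes lay on both sides of 0, as given above. Corrected medians of the classes of this list are not given here. In this list the median was 0.15 for 7 end joining genes (6 above 0) and 0.03 for 11 checkpoint genes (6 above 0). It was −0.10 for 11 nucleotide excision genes (3 above 0), 0.14 for 13 base excision genes (10 above 0) and 0.02 for 17 homologous recombination genes (9 above 0). The genes of the list with the smallest p included Mgmt, Rif1, Rev3l, Ercc6 and Tdp1. Mgmt, which removes alkyl groups from guanine, was at 2.50, 2.67, 2.50 and 2.62 CPM in PBS and at 8.91, 3.16, 4.19 and 6.38 CPM in PDT. All PDT values exceeded the closely spaced PBS values, with a log2 difference of 1.14 ± 0.36 (SE, adjusted p = 0.150 in edgeR and 0.0355 in DESeq2).

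Rif1, which protects broken ends from resection, was at 32.2, 29.3, 29.4 and 38.3 CPM in PBS and at 18.3, 27.2, 24.7 and 21.9 CPM in PDT. Its groups did not overlap, with a difference of −0.49 ± 0.16 (SE, adjusted p = 0.163 in edgeR). Rev3l, the catalytic subunit of a translesion polymerase, differed by −0.51 ± 0.18, and Ercc6, which acts on stalled transcription, by −0.50 ± 0.18 (adjusted p = 0.192 and 0.200). After the GC and length correction these 3 were at −0.13, −0.14 and −0.24. Tdp1, which frees trapped topoisomerase, was at 0.40 ± 0.17.

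Across the 37 members the change went with transcript composition. Over these genes, which are not independent replicates and share the same 8 libraries, the log2 change correlated with the GC content of the longest transcript at Pearson r = 0.50 (Spearman rho = 0.58) and with log2 transcript length at r = −0.54 (rho = −0.53). Over the 16274 tested genes with a matched transcript the values were r = 0.20 (rho = 0.26) and r = −0.15 (rho = −0.23). Of the 19 members at or above the median GC content of 48.3%, 16 were above 0, with a median of 0.20; of the 18 below it 8 were, with a median of −0.07. The kinase genes Prkdc, Atm and Atr had GC contents of 43.3%, 42.6% and 40.8% and transcripts of 12647, 9819 and 8102 bases, whereas Nthl1 had 54.8% and 2084 bases.

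A correction that removes, within each library, the trend of all genes with GC content and length left r at 0.06 for GC content and −0.06 for length over the members, as its construction tends to do. The trend was fitted to each library's deviation from the gene's mean over all libraries, without the group. Any difference between PDT and PBS that follows GC content or length is therefore also taken out by the correction. After it the end joining median was −0.10 in place of −0.36, the checkpoint median −0.02 in place of −0.17, the homologous recombination median 0.28 in place of 0.08 and the base excision median 0.21 in place of 0.27. The members furthest from 0 after it were Nthl1 at 0.77 (adjusted p = 0.253 in edgeR), Apex1 at 0.76, Ddb2 at −0.49, Mutyh at −0.39, Brca2 at 0.38 and Xrcc5 at −0.34, and 0 members were called.

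**Figure D4:**
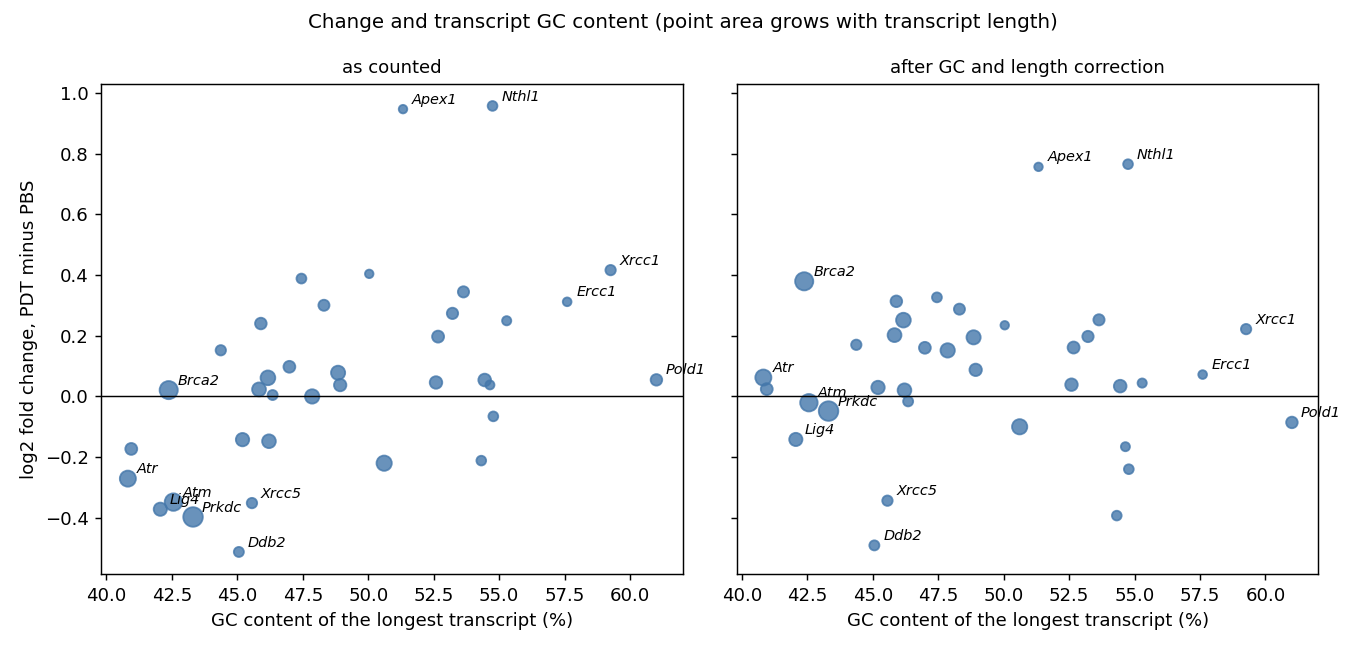
Log2 fold change, PDT minus PBS (vertical axis), against the GC content of the longest transcript in percent (horizontal axis) for the 37 genes, as counted (left) and after the GC and length correction (right); each point is a gene, with an area that grows with transcript length. The long, low-GC genes Prkdc, Atm and Atr lie between −0.40 and −0.27 on the left and between −0.05 and 0.06 on the right, while Nthl1 stays at the top in both.

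Compared per kilobase of exon, the mean PBS levels of the members ran from 0.532 CPM for Brca2, 0.551 for Palb2 and 0.612 for Atr to 10.1 for Lig1, 11.03 for Parp1, 11.4 for Ogg1 and 32.1 for Xrcc5. In PDT the same 3 genes were lowest, at 0.507 for Atr, 0.539 for Brca2 and 0.589 for Palb2, and Xrcc5 was highest at 25.1, followed by Lig1 at 12.8, Parp1 at 12.6 and Ogg1 at 11.7. Xrcc5 was the highest of the 37 in both group means. Of the 37 genes, 14 overlap another protein-coding gene in the annotation used for lengths, among them Ogg1 with Camk1, so their levels are uncertain where strand was not used in counting.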

How the data were processed

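Bulk RNA of 8 tumour samples was depleted of ribosomal RNA and sequenced as directional libraries, per the labels' protocols. The authors deposited raw read counts per gene, 57132 rows by 8 samples; per the submitters' processing notes, cutadapt 4.6, STAR 2.7.11b and GRCm39 were used, with no roles given. What counted the reads, with which annotation and strand setting, is not given in the sources used here. Of counts from 1 to 20, 77.9% to 83.8% were even, so an alternative divided counts by 2. Rows with no symbol numbered 484 and held at most 0.0176% of reads.

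Samples were grouped by title. Counts were tested in R 4.3.3 with edgeR 4.0.16 (filterByExpr, TMM scaling, quasi-likelihood test, no covariate), adjusted by Benjamini-Hochberg over 16588 genes at 0.05. CPM use TMM-scaled library sizes; 3 reads, the limit a count of 0 allows, are at most 0.0872 CPM, for counting error only. Intervals are 95%, from the quantiles of the test. Alternatives used DESeq2 1.42.0, limma 3.58.1 voom, other scalings and filters, a replicate block and each library left out. The GC and length correction (natural splines, 4 degrees of freedom, GENCODE M21, 98.1% of genes matched) was added after the data were seen. No library was a copy of a replicate (chi-square of 68.6 to 143 per degree of freedom between pairs).

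The members and all lists were chosen with earlier results of these data known. Genes given in full were the 2 with the smallest p of each class plus Brca1, Brca2, Atm, Atr, Chek1, Chek2, Ogg1, Parp1, Apex1, Xrcc6, Prkdc, Xpc and Ddb2; of the other repair genes, the 6 with the smallest p, 1 of which is not reported here; of marker lists, at most 2. In data simulated for PDT minus PBS with 15964 genes kept and 200 changed, edgeR recovered 1.56% of 1.5-fold, 40.3% of 2-fold and 78.1% of 4-fold changes, with 5 false calls among 81. Lists of fibroblast, neutrophil, endothelial, erythroid and muscle genes had medians of 0.31, 1.30, −0.03, −1.41 and 1.70.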

Additional observations from a re-analysis of the deposited data

Results flagged for a closer look

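Among 74 groups of 4 values checked, 8 had 1 library far from the others, and chance gives about 1 in 20. Apex1 was at 21.7 CPM in PDT 4 and at 5.38 to 7.34 CPM in PDT 1 to PDT 3. Mre11a was at 32.4 CPM in PDT 2 and otherwise at 20.8 to 22.7 CPM in PDT. Xrcc6 was at 24.1 CPM in PBS 1 and at 37.5 to 39.6 CPM in PBS 2 to PBS 4. Pole was at 9.98 CPM in PDT 1, against 14.5 to 15.3 CPM. Parp1 was at 62.9 CPM in PBS 1, against 56.6 to 57.2 CPM. Smaller gaps were those of Ddb2 in PBS 3 (2.87 CPM, against 3.27 to 3.31), Xrcc5 in PDT 2 (66.2 CPM, against 63.5 to 63.8) and Mre11a in PBS 2 (23.9 CPM, against values that all round to 24.1). PDT 2 and PBS 1 carried 2 and 2 of the 8.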

How the results depend on the processing

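The count of called members was 0 in edgeR under every alternative and in limma-voom, and 1 (Nthl1, with a log2 difference of 0.96) in DESeq2; that of the other repair genes was likewise 0, and 1 in DESeq2. Over all genes the count of 39 was 69 with upper quartile scaling, 534 with no count filter, 88 with 1 CPM in 4 samples, 912 in DESeq2, 167 in limma-voom, 67 with counts divided by 2, 25 after the GC and length correction, and 0 to 122 with 1 library left out (0 without PBS 3 and without PDT 1, where 2 and 5 members had an unadjusted p under 0.05). With the replicate number as a block it was 182, with 0 members called; same-numbered libraries correlated at 0.04 to 0.07 in their deviations, so the numbers were not taken as pairs.

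All 44 changes of sign under an alternative were in 17 members with a log2 difference of 0.27 or less in size, none of them called, and the cause was not tested. The other 20 members kept their sign in all 17 alternatives. With 1 library left out, log2 differences of members that changed sign ran from −0.10 to 0.24 for Brca1, −0.0725 to 0.13 for Brca2, −0.081 to 0.25 for Palb2, −0.13 to 0.10 for Mre11a, −0.36 to 0.18 for Chek1, −0.11 to 0.18 for Chek2, −0.14 to 0.066 for Rad9a, −0.0837 to 0.19 for Ogg1, −0.11 to 0.20 for Lig3, −0.0217 to 0.10 for Msh6, −0.11 to 0.17 for Pms2, −0.0822 to 0.17 for Pold1, −0.0942 to 0.34 for Fanca and −0.13 to 0.15 for Xpc. The GC and length correction gave 0.029 for Rad50, 0.0616 for Atr, 0.0235 for Chek1, −0.017 for Chek2, −0.17 for Ogg1, 0.15 for Pms2, −0.0864 for Pold1 and 0.0197 for Fancd2. Limma-voom gave −0.0384 for Mre11a and 0.0853 for Pms2, and the replicate block −0.0007 and 0.0201. Pms2 was at 0.0118 with upper quartile scaling and 0.0108 with no count filter, and Chek2 at −0.0011 with 1 CPM in 4 samples and −0.0005 with counts divided by 2.

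Depth left no member with a count of 0. A member's interval rests on 4 libraries per group, and 4 members had intervals that reach a 2-fold change.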
